A study of Mus musculus with 43 samples.

Results

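The Slc25 family is the mitochondrial carrier family, most of whose members are transporters of the inner mitochondrial membrane. Its members were taken as all genes of the expression table whose symbol is Slc25a followed by digits, which gave 47 of 54532 genes. Of these, 41 had at least 1 TPM (a share of all transcripts after correction for transcript length, so that levels can be compared between genes) in at least 1 segment. The other 6 stayed below that level and were left out of the comparisons: Slc25a43, Slc25a2, Slc25a18, Slc25a31, Slc25a54 and Slc25a41. Levels were read along the female mouse proximal tubule, from its first part S1 through S2 to its last part S3.

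The tubules were dissected by hand from kidneys of female C57BL/6 mice (Taconic) aged 6 to 8 weeks, and 2 to 5 of them made a sample. The labels name no treatment or altered gene for any group. S1 stood for 6 RNA-seq libraries, S2 for 6 and S3 for 7. The numbers in the sample titles, which may mark the animal, take 2 different values for S1 libraries, 3 for S2 libraries and 4 for S3 libraries. S1 and S2 share none of these numbers, while S3 shares 2 with each, so if a number marks an animal, segment and animal cannot be told apart between S1 and S2. The authors deposited 1 TPM value per gene and segment. Every value below is that value, without replicate error, and the differences have no replicate check and no test. A difference was counted when log2(TPM + 1) of 2 segments lay at least 1 apart, which is 2-fold and understates the fold of low genes. The depth behind the values is unknown. In such bulk samples, fewer cells of a type and less RNA per cell cannot be told apart.

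Mitochondrial carriers move nucleotides, phosphate, organic acids, amino acids, cofactors and metals across the inner membrane, which is otherwise closed to them. They link respiration to the cytosol, and in the proximal tubule they serve ATP supply for transport, glucose synthesis from lactate and amino acids, and ammonia production. Most exchange one substrate for another. Uncoupling proteins belong to the same family and are named for a return of protons to the matrix without ATP synthesis. RNA levels do not show whether a given one does so.

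Summed markers set S1 apart from S3 clearly and S2 less so. The summed level of 5 S1 markers, among them the glucose cotransporter Slc5a2, was 18372 TPM in S1, 2434 TPM in S2 and 34.3 TPM in S3. The 6 S3 markers, among them the amino acid transporter Slc7a12, summed to 272, 16602 and 29004 TPM, and the 3 S2 markers to 306, 793 and 2.8 TPM. In sum, S2 thus carried S3 markers at far higher levels than its own, mostly Napsa at 11494 TPM in S2. The S1 sum of S2 markers was almost all Slc22a8, at 297 TPM. The other S2 markers were far higher in S2 than elsewhere: Slc22a6 at 6.0, 216.8 and 1.0 TPM and Slc13a3 at 2.2, 226.8 and 1.1 TPM. Markers of other cells were present and uneven. The 8 endothelial markers summed to 70.7 TPM in S1, 663 TPM in S2 and 265 TPM in S3, and for all 8 the S1 value lay 2-fold or more below the S2 value. The 8 immune markers summed to 56.8, 290.2 and 94.7 TPM, again with all 8 below S2 in S1 by 2-fold or more. The 7 stromal and mural markers were low throughout, with sums of 1.9, 15.6 and 1.7 TPM, as were the 4 podocyte markers, with 1.7, 14.4 and 3.6 TPM. The 5 distal nephron markers summed to 2.0, 24.4 and 33.7 TPM. No endothelial or immune marker was at 0 in any segment. Their part in the differences between segments below was not tested.

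The summed level of the family was highest in S1. Its 47 members summed to 7397 TPM in S1, 5180.4 TPM in S2 and 5233 TPM in S3, which is 0.740%, 0.518% and 0.523% of the column totals. Slc25a4 and Slc25a5 held much of this difference. Without these 2 genes the sums were 4136, 3578 and 3879 TPM. These sums still held Slc25a3, at 1236, 661 and 697 TPM. With Slc25a3 taken out as well, S1 was no longer the highest, so the S1 excess of the sum rests on few genes. Each segment drew about as much of its sum from 3 genes: Slc25a5, Slc25a3 and Slc25a4 made 60.8% of the sum in S1, Slc25a5, Slc25a39 and Slc25a3 made 61.5% in S2, and Slc25a39, Slc25a5 and Slc25a3 made 63.3% in S3. By its highest segment, a member was at 100 TPM or more for 11 genes, between 10 and 100 TPM for 22 and between 1 and 10 TPM for 8.

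**Figure D1:**
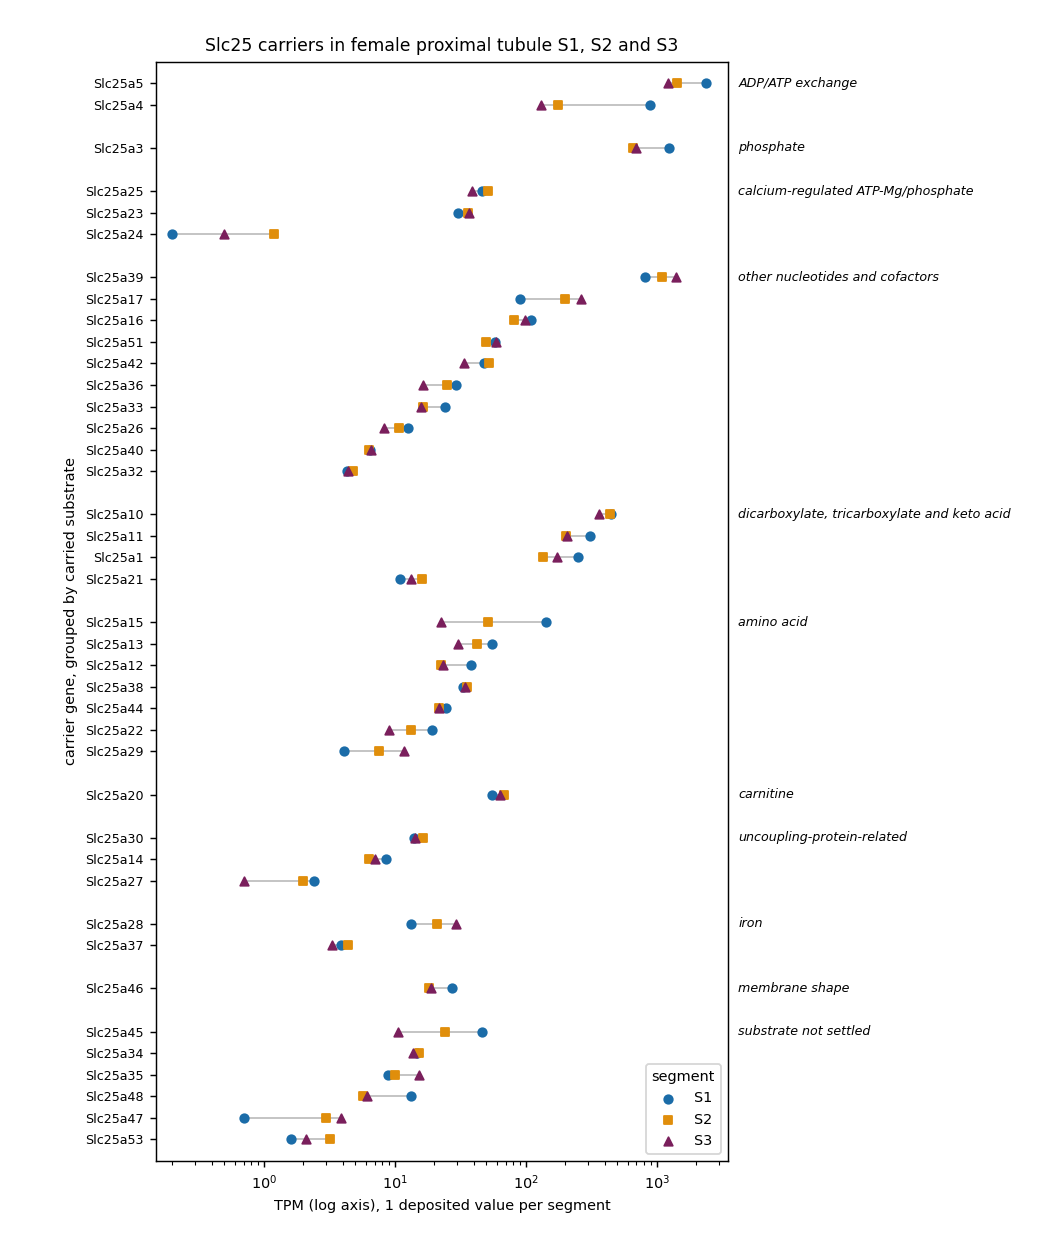
TPM of 40 of the 41 carriers compared, on a log axis, with 1 row per gene in groups by carried substrate; circles are S1, squares S2 and triangles S3, each 1 deposited value. Levels span from 0.2 TPM for Slc25a24 in S1 to 2373 TPM for Slc25a5 in S1, and the widest gaps above 100 TPM belong to Slc25a4, Slc25a15 and Slc25a17.

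Most carriers stayed within 2-fold along the tubule, as did most of all genes compared. Of the 41 members, 10 were at least 2-fold apart between their highest and lowest segment, beside 33.3% of all 16053 genes compared. Of these 10, 6 were highest in S1 and 4 in S3, and none was highest in S2. Of all 5338 genes at least 2-fold apart, 31.3% had their highest level in S1, 38.2% had it in S2 and 30.5% had it in S3. The 6 were Slc25a4, Slc25a15, Slc25a45, Slc25a48, Slc25a22 and Slc25a27, and the 4 were Slc25a17, Slc25a28, Slc25a29 and Slc25a47. Among the 33 members with at least 10 TPM in a segment, 25 stayed within 2-fold across all 3 segments. The share of all genes at that level was not counted.

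The exchange of ADP for ATP is the step by which mitochondrial ATP reaches the cytosol. Slc25a4 (ENSMUSG00000031633), which encodes the ADP/ATP carrier ANT1 that predominates in heart and skeletal muscle, was at 888 TPM in S1, 177 TPM in S2 and 131 TPM in S3. Its S1 level was 5.02 times that of S2 and 6.79 times that of S3, the widest S1 to S3 ratio among the members with at least 1 TPM in both. Slc25a5 (ENSMUSG00000016319), which encodes the widely expressed ANT2, was at 2373, 1426 and 1223 TPM. It was the higher of the pair in every segment and ranked 52nd of all genes in S1, 75th in S2 and 94th in S3. Its S1 level was 1.66 times that of S2 and 1.94 times that of S3, short of the 2-fold call. The pair summed to 3262, 1602 and 1354 TPM, and Slc25a4 made 27.2% of the sum in S1, 11.0% in S2 and 9.67% in S3. Slc25a31, the ADP/ATP carrier of male germ cells, was at 0, 0.1 and 0 TPM. Retrotransposed copies of these genes can share reads with them. Among entries looked up as copies, Slc25a5-ps was listed at 0.6, 0.8 and 0.5 TPM. AC162805.6 was at 0.1, 0.1 and 0.3 TPM and AC162805.7 at 0.1, 0.1 and 0 TPM. No source used here says how reads were divided between copies, which leaves the levels of both genes uncertain by what the copies hold.

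**Figure D2:**
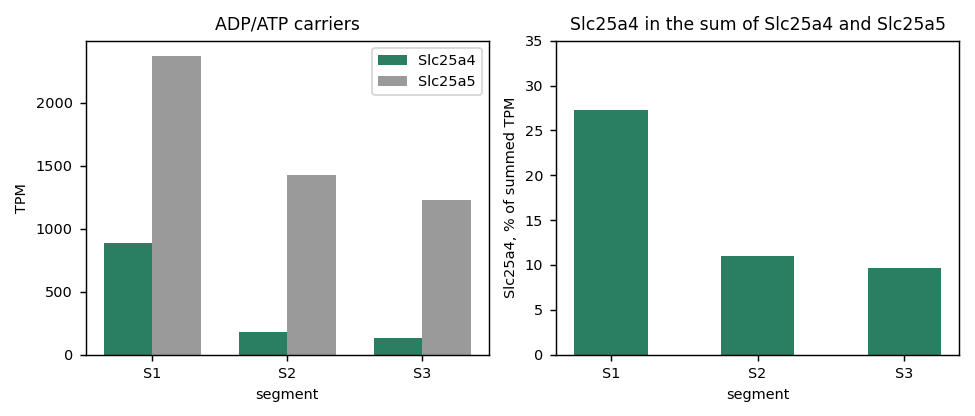
Left, TPM of the ADP/ATP carriers Slc25a4 and Slc25a5 by segment; right, Slc25a4 as a percentage of the summed TPM of both, with 1 deposited value per bar. Slc25a5 is the higher gene in each segment, and the share of Slc25a4 is 27.2% in S1, 11.0% in S2 and 9.67% in S3.

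Phosphate enters the matrix for ATP synthesis through Slc25a3. The gene was at 1236 TPM in S1, 661 TPM in S2 and 697 TPM in S3, which makes S1 1.87 times S2. The ATP-Mg/phosphate carriers, which calcium regulates and which adjust the adenine nucleotide content of the matrix, were far lower and nearly level. Slc25a25 was at 46.1, 51.1 and 38.9 TPM and Slc25a23 at 30.2, 36.5 and 36.8 TPM. Slc25a24 was at 0.2, 1.2 and 0.5 TPM, and Slc25a41 was listed at 0 in all segments. Neither Slc25a23 nor Slc25a25 differed 2-fold between any pair of segments.

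Dicarboxylate, tricarboxylate and keto acid carriers move the intermediates of the citrate cycle. Slc25a10, the dicarboxylate carrier that exchanges malate or succinate for phosphate, was at 444 TPM in S1, 440 TPM in S2 and 359.9 TPM in S3. Slc25a11, the oxoglutarate-malate exchanger, was at 310.1, 203 and 205 TPM. Slc25a1, the citrate carrier, was at 249.5 TPM in S1, 136 TPM in S2 and 174 TPM in S3. Slc25a21, which carries oxoadipate and oxoglutarate, was at 10.9, 16.1 and 13.4 TPM. None of the 4 differed 2-fold in any pair of segments. The group summed to 1015, 794.5 and 752 TPM, with Slc25a11 and Slc25a1 lowest in S2 and Slc25a10 lowest in S3.

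The amino acid carriers included genes with opposite gradients. Slc25a15 (ENSMUSG00000031482), the ornithine-citrulline exchanger, was at 142 TPM in S1, 51.5 TPM in S2 and 22.4 TPM in S3. The step between S1 and S2 was 2.76-fold and that between S2 and S3 was 2.30-fold, so each passed 2-fold. Slc25a29 (ENSMUSG00000021265), which carries arginine, lysine and ornithine, ran the other way with 4.1, 7.6 and 11.7 TPM. Its S3 level was 2.85 times its S1 level. Slc25a15 made 97.2% of the sum of this pair in S1, 87.1% in S2 and 65.7% in S3, while that sum was 146, 59.1 and 34.1 TPM. Slc25a2, the other ornithine carrier, stayed at 0.4 TPM or less.

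The aspartate-glutamate exchangers, parts of the malate-aspartate shuttle that brings cytosolic reducing power into mitochondria, were Slc25a13 (citrin) at 55.0, 42.3 and 30.6 TPM and Slc25a12 (aralar) at 38.2, 22.7 and 23.3 TPM. Both were highest in S1, and neither reached 2-fold. Slc25a22, a glutamate carrier, was at 19.3 TPM in S1, 13.4 TPM in S2 and 9.1 TPM in S3, and just passed 2-fold between S1 and S3 with a log2 difference of 1.01. Its relative Slc25a18 was at 0.1 TPM in every segment. Slc25a38, which brings glycine in for heme synthesis, was nearly level at 33.0, 35.8 and 34.3 TPM. The branched-chain amino acid carrier Slc25a44 was similarly level at 24.6, 21.9 and 21.7 TPM.

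Among carriers of other nucleotides and cofactors, the highest was Slc25a39, which imports glutathione into mitochondria. It was at 818 TPM in S1, 1101 TPM in S2 and 1393 TPM in S3, a 1.70-fold higher level in S3 than in S1, and in S3 it stood above Slc25a5. Its close relative Slc25a40 was at 6.5, 6.3 and 6.6 TPM, the smallest spread of the 41 members on the log2 scale. Slc25a17 (ENSMUSG00000022404), a carrier of the peroxisomal membrane for CoA, FAD and NAD, was at 89.9 TPM in S1, 199 TPM in S2 and 265 TPM in S3. Its S2 level was 2.22 times and its S3 level 2.94 times its S1 level, and no other member above 100 TPM stood 2-fold or more below both other segments in S1.

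The cofactor carriers that follow stayed within 2-fold. Slc25a16, linked to mitochondrial CoA, was at 110, 81.0 and 98.1 TPM. The NAD carrier Slc25a51 was at 58.4, 49.4 and 59.4 TPM, and the CoA carrier Slc25a42 at 48.1, 52.0 and 33.6 TPM. Pyrimidine nucleotide carriers Slc25a36 and Slc25a33 were at 29.5, 24.8 and 16.5 TPM and at 24.2, 16.5 and 15.7 TPM. Both were lowest in S3. Slc25a26, which imports S-adenosylmethionine, was at 12.5, 10.7 and 8.3 TPM, and the folate carrier Slc25a32 at 4.3, 4.8 and 4.4 TPM.

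Carnitine esters of fatty acids cross through Slc25a20, which was at 55.2 TPM in S1, 67.9 TPM in S2 and 63.3 TPM in S3. The uncoupling-protein-related carriers were low. Slc25a30, first described as a kidney mitochondrial carrier, was at 13.9, 16.5 and 14.2 TPM, Slc25a14 (UCP5) at 8.5, 6.4 and 7.0 TPM, and Slc25a27 (UCP4) at 2.4, 2.0 and 0.7 TPM. For Slc25a27 the S1 to S3 difference was 1.00 on the log2(TPM + 1) scale, at the threshold and between levels near 1 TPM. Of the uncoupling proteins that carry the Ucp name, which the symbol rule does not take, Ucp2 was at 7.6 TPM in S1, 150.1 TPM in S2 and 72.0 TPM in S3. Ucp1 and Ucp3 stayed at 0.6 TPM or less. The summed endothelial and the summed immune markers were also lowest in S1 and highest in S2, although single immune markers differed in order (Csf1r was highest in S3, and Cd74 and Ptprc were lowest there), and their part in the Ucp2 difference was not tested.

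The iron carriers, or mitoferrins, supply heme and iron-sulfur cluster synthesis. Slc25a28 (mitoferrin-2) was at 13.2 TPM in S1, 21.1 TPM in S2 and 29.1 TPM in S3, with an S3 level 2.20 times that of S1. Slc25a37 (mitoferrin-1), the form known from red cell precursors, was at 3.9, 4.4 and 3.3 TPM. Slc25a46, an outer membrane protein that acts on mitochondrial shape, was at 27.4, 18.1 and 18.8 TPM.

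For 6 of the genes compared no carried substrate was assigned here. Slc25a45 (ENSMUSG00000024818) was at 45.9 TPM in S1, 24.1 TPM in S2 and 10.5 TPM in S3, so that S1 held 4.37 times and S2 2.30 times the S3 level. Slc25a48 was at 13.2, 5.7 and 6.1 TPM, and its S1 level was 2.32 times that of S2 and 2.16 times that of S3. Slc25a47 was low throughout, with 0.7, 3.0 and 3.9 TPM. Slc25a34 was level at 14.7, 15.4 and 13.8 TPM, Slc25a35 was at 8.8, 10.0 and 15.4 TPM, and Slc25a53 was at 1.6, 3.2 and 2.1 TPM.

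By contrast of segments, S1 against S2 had 3 of 41 members at least 2-fold higher in S1 (Slc25a4, Slc25a15 and Slc25a48), beside 6.62% of all genes, and 2 lower (Slc25a17 and Slc25a47), beside 17.7%. The median difference of the members was 0.039 on the log2 scale and that of all genes -0.18; this sign of the members' median turned when TPM was rescaled without mitochondrially encoded genes, Gpx3 and Kap (-0.072). S1 against S3 had 6 members higher, beside 10.5% of all genes, and 4 lower, beside 13.1%, with medians of 0.19 for members and -0.0053 for all genes. S2 against S3 had 2 members higher in S2 (Slc25a15 and Slc25a45), beside 8.74%, and none lower, beside 2.24%, with medians of 0.068 for members and 0.12 for all genes. The members differing by less than 1.5-fold numbered 26 (63.4%, beside 54.2% of all genes) for S1 and S2, 22 (53.7%, beside 59.0%) for S1 and S3, and 37 (90.2%, beside 75.0%) for S2 and S3. Each segment enters 2 of these contrasts, so they are not independent.

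**Figure D3:**
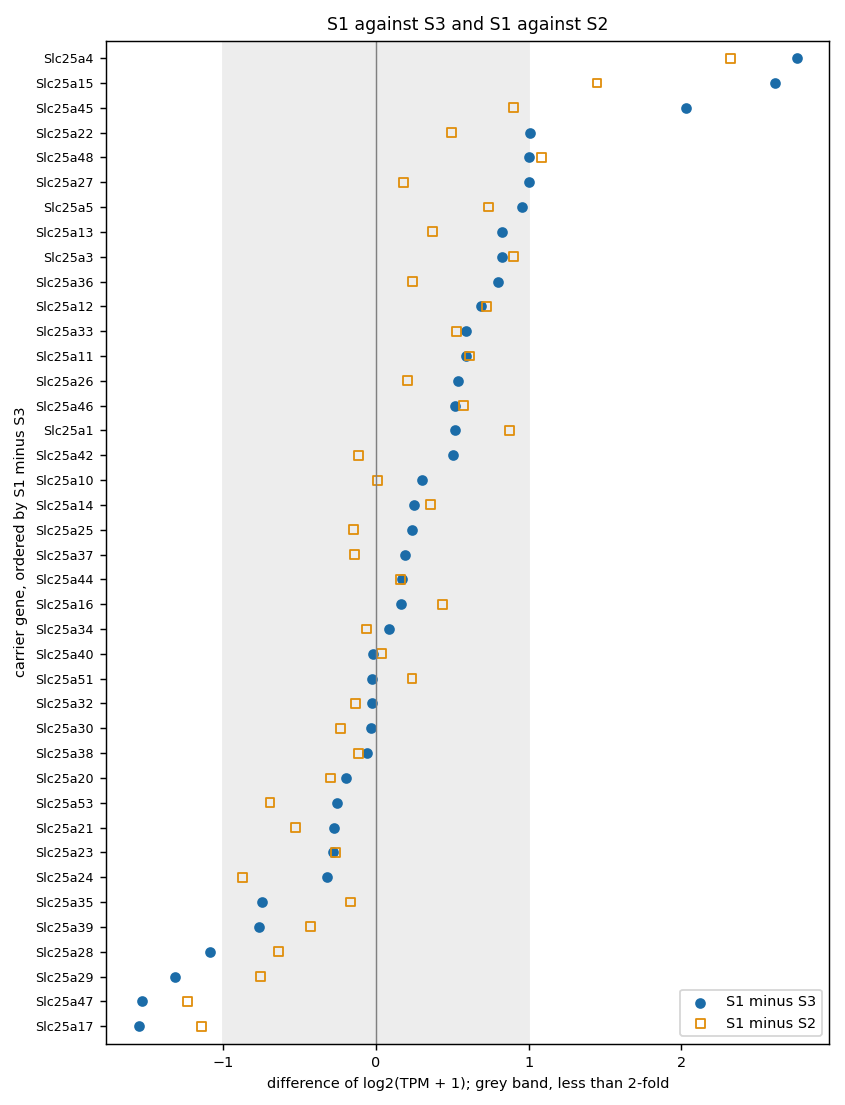
Difference of log2(TPM + 1) for 40 of the 41 carriers, S1 minus S3 as filled circles and S1 minus S2 as open squares, with genes ordered by S1 minus S3; the grey band marks less than 2-fold. Slc25a4, Slc25a15 and Slc25a45 stand at 2.75, 2.61 and 2.03 for S1 minus S3, and Slc25a17 and Slc25a47 at -1.55 and -1.53.

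The order of segments was recorded for each member. The level was highest in S1 for 20 members (48.8%, beside 36.4% of all genes compared), in S2 for 11 (26.8%, beside 37.2%) and in S3 for 10 (24.4%, beside 26.4%). It descended from S1 through S2 to S3 in 12 members (29.3%, beside 22.9%) and ascended in 8 (19.5%, beside 20.9%). The 12 included Slc25a5, Slc25a4, Slc25a15, Slc25a13 and Slc25a45, and the 8 included Slc25a39, Slc25a17, Slc25a28 and Slc25a29. Many of these steps were small. S2 and S3 of Slc25a44, one of the 12, differed by 0.013 on the log2 scale. The 4 members whose S3 level passed 2-fold over S1 ascended through S2 to S3. The summed distal nephron markers had the same order, which rested mostly on Umod at 0.2, 21.1 and 29.1 TPM. Slc12a3 had it too, at 0.7, 2.0 and 3.0 TPM. Slc12a1, Aqp2 and Calb1, each at 1.0 TPM or less, did not have this order. Of the 8 immune markers, Csf1r also had it, at 0.5, 32.0 and 46.9 TPM, but 7 were at least 2-fold higher in S2 than in S3. The part of these markers in the members' order was not tested.

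**Figure D4:**
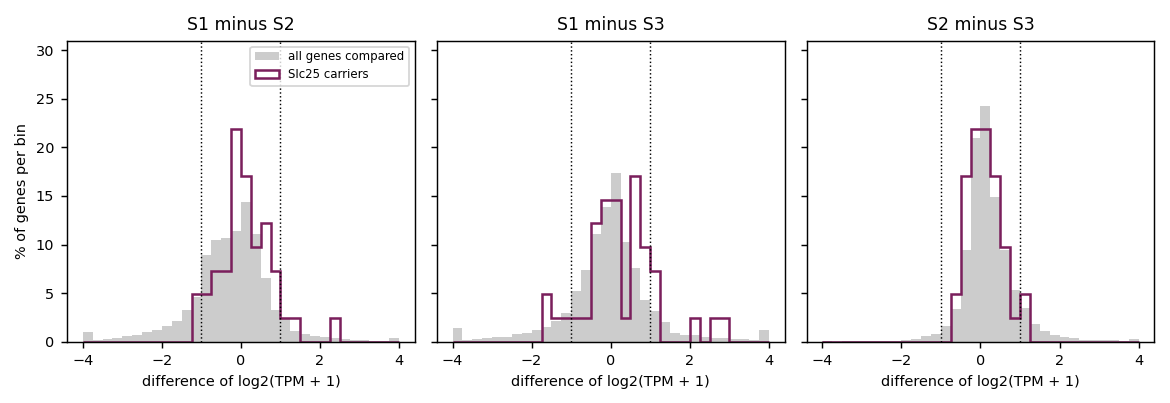
Share of genes per 0.25 bin of the log2(TPM + 1) difference, for S1 minus S2, S1 minus S3 and S2 minus S3; grey, all 16053 genes compared, and outline, the 41 carriers. Values beyond 4 are drawn in the end bins, and dotted lines mark 2-fold; 37 of 41 carriers lie within 1.5-fold for S2 minus S3.

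Promoter sequences are shown for a pair of members highest in S1 and a pair highest in S3, chosen after their values were seen, so that the letters before genes of opposite gradient can be set side by side. Each is the 250 bases before a start site in RefSeq's GRCm38.p6, of which mm10 holds the same chromosomes. Capitals mark matches on either strand to any of 6 short motifs. These were TGCGCA for the NRF1 half-site, CCGGAAG for ETS factors, GGGCGG for the GC box, CCAAT for the CCAAT box, TATAAA for the TATA box and AGGTCA for the nuclear receptor half-site. Slc25a4 is at chr8:46211063-46211312, Slc25a15 at chr8:22398622-22398871 (its outer annotated start), Slc25a17 at chr15:81360766-81361015 and Slc25a29 at chr12:108835877-108836126, all on the minus strand.
Slc25a4: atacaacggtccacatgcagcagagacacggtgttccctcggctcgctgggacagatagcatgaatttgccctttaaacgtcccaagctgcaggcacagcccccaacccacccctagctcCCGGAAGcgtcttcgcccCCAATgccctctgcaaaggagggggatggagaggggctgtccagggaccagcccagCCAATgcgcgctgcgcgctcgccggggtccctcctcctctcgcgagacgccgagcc
Slc25a15: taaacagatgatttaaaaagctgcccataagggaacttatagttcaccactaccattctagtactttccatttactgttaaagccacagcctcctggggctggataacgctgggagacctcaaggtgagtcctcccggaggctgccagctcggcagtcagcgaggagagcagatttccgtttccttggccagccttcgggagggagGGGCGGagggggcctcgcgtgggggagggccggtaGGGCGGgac
Slc25a17: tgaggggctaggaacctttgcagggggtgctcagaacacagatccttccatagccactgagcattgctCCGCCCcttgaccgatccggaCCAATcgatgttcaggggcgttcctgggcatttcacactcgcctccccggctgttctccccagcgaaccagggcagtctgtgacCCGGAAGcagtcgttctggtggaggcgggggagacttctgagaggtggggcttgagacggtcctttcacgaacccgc
Slc25a29: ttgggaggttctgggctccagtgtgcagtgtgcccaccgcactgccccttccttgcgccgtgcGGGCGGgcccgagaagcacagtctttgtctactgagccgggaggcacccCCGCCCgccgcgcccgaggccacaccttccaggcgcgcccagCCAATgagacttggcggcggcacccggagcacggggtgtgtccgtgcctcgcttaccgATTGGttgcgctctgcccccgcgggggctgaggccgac
Both Slc25a4 and Slc25a17 hold an ETS match, although their levels ran in opposite directions along the tubule. Slc25a4 has it at positions -130 to -124 and Slc25a17 at -77 to -71, counted from the start site. The Slc25a15 window shown holds 2 GC boxes near the start, and Slc25a29 holds 2 GC boxes and 2 CCAAT boxes. Slc25a15 has a second window, at chr8:22398278-22398527 and not shown, which holds 5 GC boxes, so its count depends on the start chosen. Windows were found for 32 of the 41 members, some with several starts, 42 in all. A GC box was in 73.8% of these windows, beside 32.7% of all 32851 windows and 54.9% of the 13284 windows of genes compared. CCAAT was in 50.0% of member windows, beside 33.8% and 35.1%, and TATAAA in 2.38%, beside 12.4% and 6.90%. ETS was in 11.9% (6.91% of all windows and 12.9% of those of genes compared), the NRF1 half-site in 7.14% (6.43% and 10.9%) and AGGTCA in 9.52% (14.0% and 11.2%). The GC content had a median of 57.4% in member windows, 52.4% in all windows and 59.2% in those of genes compared. A match describes the letters and is no evidence of binding.

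Some members lie next to each other in the genome (GRCm38.p6). Slc25a29 (chromosome 12, 108825878 to 108835876) and Slc25a47 (108849833 to 108856815) are 13956 bases apart, and both were lowest in S1 and highest in S3. On the X chromosome Slc25a43 (36743570 to 36777307) lies 18289 bases from Slc25a5 (36795597 to 36798808), yet the first was at 0.9 TPM or less in every segment. Slc25a23 and Slc25a41, which was listed at 0, on chromosome 17 are 2056 bases apart. Slc25a54 and Slc25a24 on chromosome 3 are 6566 bases apart, and neither passed 1.2 TPM.

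The carriers were set beside other mitochondrial genes. All 4 enzymes of the malate-aspartate shuttle had S1 levels more than 2-fold above those of both S2 and S3. Got1, the cytosolic aspartate aminotransferase, was at 150.2, 23.2 and 14.3 TPM, its mitochondrial partner Got2 at 167, 68.9 and 45.2 TPM, and the malate dehydrogenases Mdh1 at 2282, 983 and 868 TPM and Mdh2 at 1047, 455 and 453 TPM. The list's median was 1.24 for S1 minus S2 and 1.63 for S1 minus S3. The carriers of the shuttle had smaller differences: 0.73 and 0.69 for Slc25a12, 0.37 and 0.83 for Slc25a13, and 0.61 and 0.59 for Slc25a11.

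The 18 nuclear-encoded respiratory chain genes had medians of 0.70 for S1 minus S2 and 0.57 for S1 minus S3. In the first contrast 1 gene passed 2-fold and in the second 2, all toward S1, beside 6.62% and 10.5% of all genes. Slc25a3, at 0.90 and 0.82, and Slc25a5, at 0.74 and 0.96, were above these medians and within the range of the list, and Slc25a4, at 2.32 and 2.75, was above every gene of that list, including the succinate dehydrogenase subunit Sdha, which was at 842, 342 and 277 TPM. The 15 other mitochondrial membrane transporters and channels had medians of 0.31 and 0.45. Vdac2, an outer membrane channel, was at 249.7, 118 and 117 TPM, and Mpc2, a subunit of the pyruvate carrier, at 904, 731.5 and 1079 TPM. The 11 genes of the protein import machinery, which places carriers in the inner membrane, had medians of 0.17 and 0.01, and their sums of 892, 778 and 885 TPM were close. Timm9, part of the chaperone that escorts carriers, was the 1 gene of this list called 2-fold, at 78.5, 54.4 and 38.2 TPM. Its call was toward S1 against S3, beside 10.5% of all genes.

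**Figure D5:**
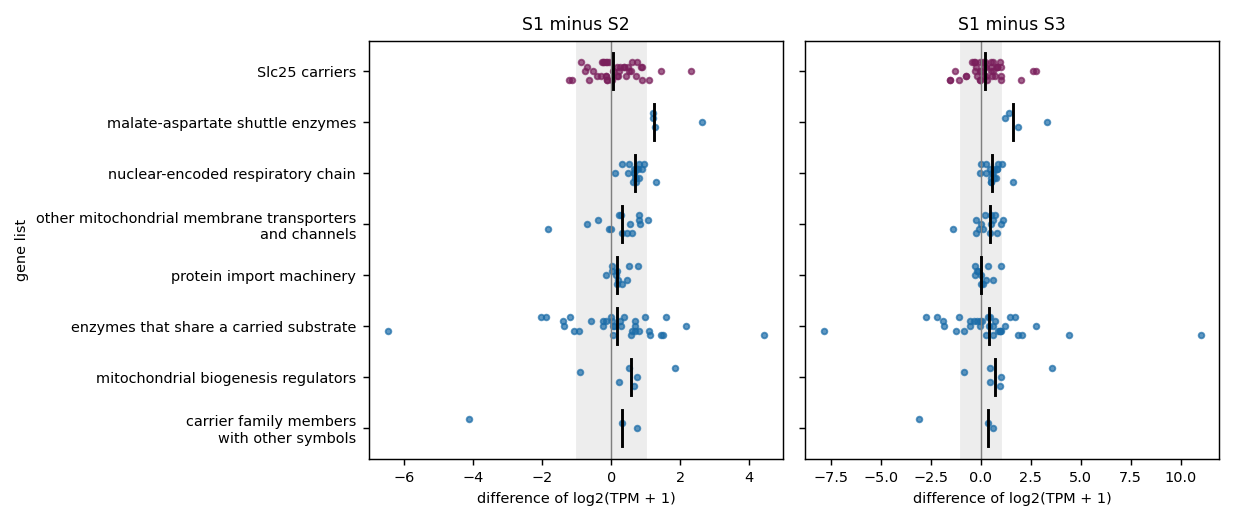
Difference of log2(TPM + 1), S1 minus S2 at left and S1 minus S3 at right, for the 41 carriers and 7 lists of related genes; each dot is a gene, black bars are list medians, and the grey band marks less than 2-fold. The medians of the carriers are 0.039 and 0.19, those of the shuttle enzymes 1.24 and 1.63, and those of the respiratory chain 0.70 and 0.57.

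Enzymes that share a substrate with a carrier differed in both directions. Of 34, 7 passed 2-fold toward S1 and 7 toward S2 when those segments were compared, beside 6.62% and 17.7% of all genes. Between S1 and S3, 9 passed toward S1 and 7 toward S3, beside 10.5% and 13.1%. Gatm is counted toward S1 in both contrasts and is also among the S1 markers, so its direction was set by that choice. The medians were 0.17 for S1 minus S2 and 0.39 for S1 minus S3. Beside Slc25a15 and Slc25a29, the arginase Arg2, which makes ornithine in mitochondria, was at 0.2, 106.9 and 278 TPM, the ornithine aminotransferase Oat at 428, 263 and 321 TPM, and Gatm, which makes ornithine as it starts creatine synthesis, at 4072, 187 and 1.0 TPM. The orders of these enzymes differed, and Oat stayed within 2-fold. Coasy, the last enzyme of CoA synthesis, was at 78.4, 210 and 294 TPM, and Dcakd, a further gene of the list linked to CoA synthesis, ran the other way at 22.2, 18.2 and 14.3 TPM. Bcat2, the mitochondrial branched-chain aminotransferase, was at 38.6, 101.2 and 140.1 TPM, whereas Slc25a44 was level. The list's other branched-chain genes ran opposite to Bcat2, with Bckdha at 324, 214.5 and 158 TPM and Bckdhb at 24.5, 10.7 and 0.2 TPM. Pcx, the pyruvate carboxylase of glucose synthesis, was at 282, 99.4 and 66.6 TPM.

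Of 6 regulators of mitochondrial content, 1 passed 2-fold toward S1 against both other segments. This was Ppargc1a, a coactivator of mitochondrial biogenesis, at 53.7, 14.2 and 3.7 TPM. Of all genes, 6.62% passed toward S1 against S2 and 10.5% toward S1 against S3. The medians of the list were 0.58 and 0.70. Esrra was at 49.8, 29.5 and 24.6 TPM, and Tfam, the mitochondrial DNA factor, at 24.6, 17.0 and 17.9 TPM, while Ppargc1b was lowest in S1 with 4.2, 8.7 and 8.4 TPM. The relatives Mtch1 and Mtch2, outer membrane members of the carrier family, were at 173, 138.5 and 136 TPM and at 346, 207 and 229 TPM.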

How the data were processed

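RNA of microdissected tubules was made into cDNA with a SMARTer V4 kit and tagmented with Nextera XT, per the labels' protocols, which mention no molecular identifiers. STAR, RSEM and the build mm10 are named per the submitters' processing notes. No source used here says which tool made the values or how libraries were combined. The authors deposited TPM as 1 value per gene and segment, rounded to 1 decimal, with column totals of 999907 (S1), 999988 (S2) and 999911 (S3). A further 5 value columns have no matching RNA-seq samples in the labels and stayed unused; 24 ATAC-seq samples were not analysed here.

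Genes with at least 1 TPM in at least 1 segment, 16053 in all, were compared by the difference of log2(TPM + 1), a pseudocount of 1. Members are described by role group, 1 of them in counts and sums alone since its own values are not reported here, and genes of related lists are named as examples. Members and lists were chosen with earlier results of these data known. The counting code was run on simulated data with changes planted in genes of at least 10 TPM. That run checks the code alone and says nothing of the noise of these data or of levels near 1 TPM. RefSeq coordinates were matched by symbol for all 47 members. Python 3.11.15, pandas 2.3.3 and numpy 2.4.6 were used.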

Additional observations from a re-analysis of the deposited data

How the results depend on the processing

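No paired analysis was possible because each segment has 1 deposited value, and leaving out libraries was not possible for the same reason. Of the members called 2-fold in a contrast, none changed sign under the 7 alternatives. With pseudocount 5, the members 2-fold apart fell to 4: Slc25a4, Slc25a15, Slc25a17 and Slc25a45. That setting gave 1 lower for S1 against S2, 3 higher and 1 lower for S1 against S3, and 1 higher for S2 against S3. Pseudocount 0.1 gave 4 higher for S2 against S3, adding Slc25a24 and Slc25a27. Median-of-ratios scaling gave 3 higher for S1 against S3, without Slc25a22, Slc25a27 and Slc25a48, whose differences as reported were 1.01, 1.00 and 1.00. Slc25a22 and Slc25a48 also lost this call with pseudocount 5, under quantile normalization and after rescaling without mitochondrially encoded genes, Gpx3 and Kap. Quantile normalization, and a minimum of 5 TPM, each left 1 lower for S1 against S2, without Slc25a47. The median of the members for S1 minus S2 was 0.20 under quantile normalization, which moved the median of all genes by 0.27, and 0.21 with a minimum of 5 TPM, which moved it by 0.20. It was -0.072 when TPM was rescaled without mitochondrially encoded genes, Gpx3 and Kap, which moved all genes by -0.16, so its sign depends on the scaling. Relative to all genes, the S1 minus S2 median of the members lay 0.22 higher as reported, 0.11 higher under quantile normalization and 0.27 higher without those RNAs. With no filter on low values, the S1 minus S3 median was 0.085. Quantile normalization took the share of higher calls among all genes from 27.2% to 44.3% for S1 against S2 and from 79.6% to 63.1% for S2 against S3. Where a value moved, the cause was not tested. Depth is unknown, so differences between levels near 1 TPM cannot be weighed.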
